A study of Mus musculus with 11 samples.

Results

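This account covers 37 genes of macrophages and of antigen presentation on MHC class II, taken by symbol from a table of 23337 mouse genes. The members were given as a list of names. They are 8 core myeloid and leukocyte genes, 2 growth factor receptors, 3 complement C1q chains, 5 Fc receptors and adaptors, 7 scavenger and pattern receptors, 2 hydrolases, 6 genes of class II presentation and 4 genes of lipid handling and tissue remodelling. All 37 symbols stood in the table.

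RNA was sequenced from whole adrenal glands of male Hsd:Athymic Nude-Foxn1nu mice, 5 samples labelled intact and 6 labelled ORX, the usual abbreviation of orchiectomy. Every animal had been inoculated with VCaP, a human prostate cancer cell line, when 5 to 6 weeks old. Allocation to the groups followed 7 weeks after inoculation and collection of the glands 15 weeks after it. The series title gives the purpose as the contribution of the adrenal gland to steroid synthesis in the mouse. Both groups carry the Foxn1nu mutation, which leaves mice without a normal thymus and so with few T cells, and both carry the inoculated tumour cells, so neither group stands for an immunocompetent or tumour-free animal. Whether a sample is 1 gland, a pair or a pool, and whether samples are separate mice, is not stated in the labels, so the p-values here reflect sample-to-sample spread that may be technical.

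Totals were 11368447 to 15029582 counts per library. Marker genes of the adrenal cortex were present at a summed 35764 to 96043 CPM (counts scaled to a common library size) in every library, and those of the medulla at 6439 to 30595 CPM. Of 20 T and NK cell markers 7 had enough counts to be tested. The defining T cell genes Cd3e, Cd3d, Cd3g, Cd8a and Cd8b1 had at most 6, 2, 15, 10 and 4 counts in any library, while Lck had 17 to 81 and Cd4 5 to 32. ORX 6 was the least like the rest of its group, with Spearman correlations over genes of 0.968 to 0.977 to the other ORX libraries, which had 0.977 to 0.984 among themselves. Intact 3 had the lowest cortex sum, 35764 CPM against 50676 to 80545 CPM in the other intact libraries. Its Spearman correlations, 0.973 to 0.981, lay within the range of the other intact libraries among themselves, 0.972 to 0.983. A running number in the sample descriptions covers the intact samples first and the ORX samples after them; what it orders is not stated, and it cannot be told apart from the group.

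Macrophages are resident phagocytes of most organs, and in the adrenal they lie along the sinusoids of cortex and medulla. Their survival depends on the receptor encoded by Csf1r, which binds the products of Csf1 and Il34. They take up debris through scavenger receptors, bind antibody through Fc receptors, are a main source of C1q and, like dendritic cells and B cells, display peptides on MHC class II molecules under control of the coactivator encoded by Ciita.

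Of the 37 members, 36 passed the filter on low counts and were tested, and 1 of them, Cd14, fell in ORX, with none higher (edgeR quasi-likelihood test, Benjamini-Hochberg adjusted p under 0.05 over all 14139 tested genes). That is 2.78% of the tested members, against 6.21% of all tested genes called in either direction, 3.03% higher and 3.18% lower. The median log2 fold change (ORX over intact) of the members was -0.06, against 0.01 for all tested genes, with 17 members above 0 and 19 below. A p under 0.05 before adjustment was reached by 4 members, Cd14, Trem2, Mpeg1 and Msr1, while 22.9% of all tested genes reached it. The groups did not overlap in 1 member, again Cd14 and lower in ORX, against 5.28% of all tested genes (2.92% higher and 2.36% lower). For 18 members the 95% interval of the log2 fold change lay within a 2-fold change in either direction, and for the other 18, Cd14 among them, it reached beyond, so that a change of that size was not excluded for them. The members varied more between libraries of a group than most genes: their biological coefficient of variation was 21.5% (Csf1r) to 86.4% (Gpnmb), median 36.5%, and in 31 of 36 it exceeded the median of all tested genes, 26.2%. In a bulk sample, fewer cells of a type and less RNA per cell cannot be told apart.

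**Figure D1:**
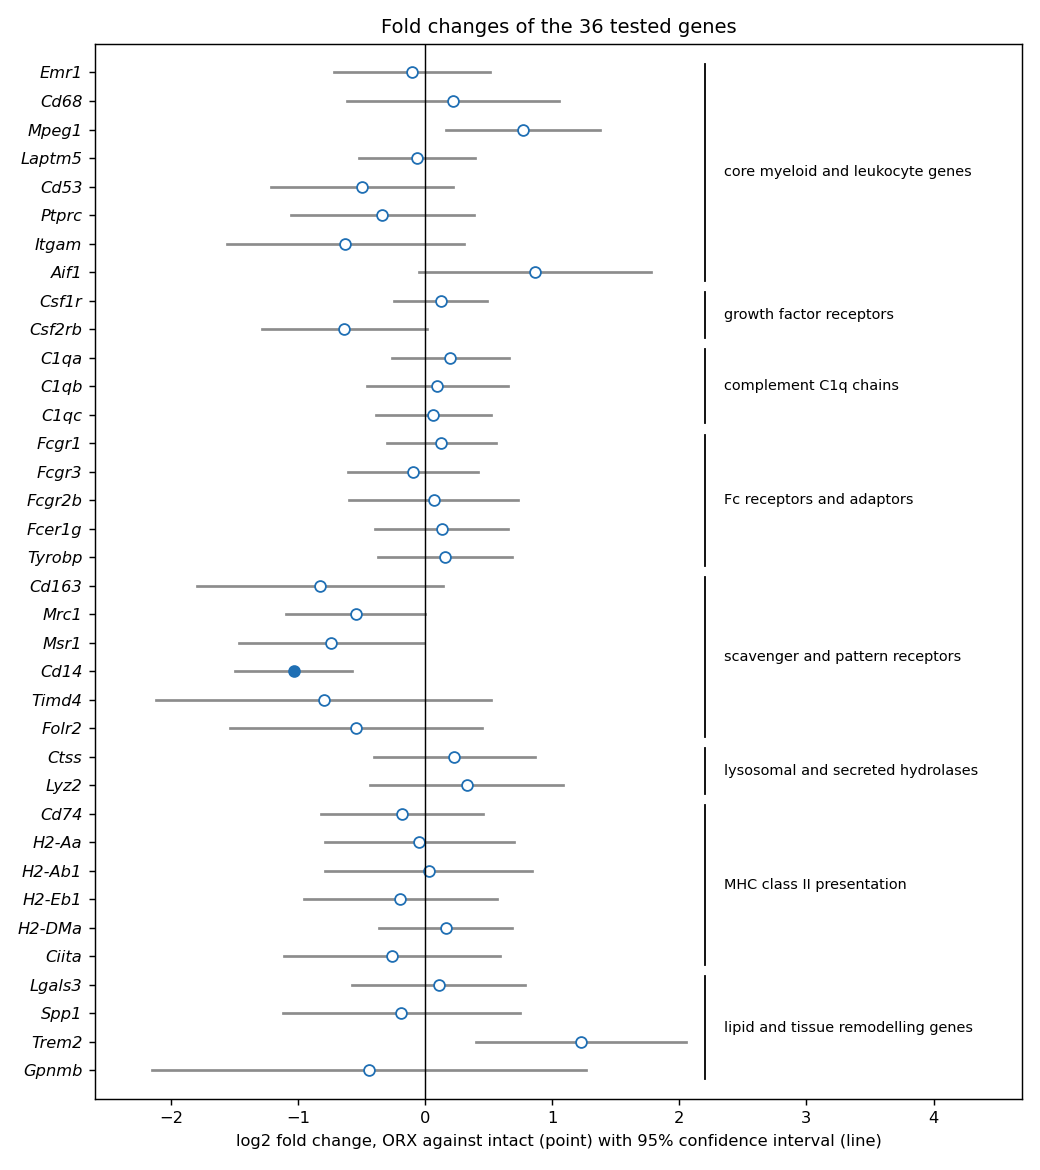
Log2 fold change, ORX over intact, of the 36 tested members by role, with 95% intervals from the edgeR fit; the vertical line marks no change. Cd14, at -1.04, is the member past the threshold, and the interval of Trem2 (0.40 to 2.05) lies farthest to the right of the line among the others.

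Levels were compared between genes per kilobase of the principal transcript. On that scale Cd74, the invariant chain that chaperones class II molecules, had the highest mean level, 306 CPM per kb in intact and 269 in ORX. It was followed in intact by H2-Aa (106), the lysozyme gene Lyz2 (102), C1qa (96.1), H2-Ab1 (94.7), C1qb (79.1), H2-Eb1 (75.0), the protease gene Ctss (59.2) and C1qc (57.4). At the low end, the class II regulator Ciita stood at 0.649 and 0.542 CPM per kb, the lowest of all members in intact. Marco at 0.130 was the lowest in ORX. Among the intact libraries Cd74 stood clear of its neighbour, with at least 199.7 CPM per kb in every library against at most 150.03 for H2-Aa. In the other 35 of the 36 pairs of neighbours in this order the intact libraries overlapped. Cd74 was not the highest member in ORX 4, at 173 CPM (1410 bases) against 333 CPM for Lyz2 (1316 bases).

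The core myeloid and leukocyte genes held no call in 8 tested members, with 3 above 0, 5 below and a median log2 fold change of -0.09. Emr1, which encodes the macrophage surface receptor F4/80, was at 9.99, 11.6, 7.42, 5.19 and 7.12 CPM in intact 1 to 5, and at 5.05 to 13.4 CPM in ORX with a median of 7.19. The groups overlapped across almost their whole range, and ORX 4 alone lay above every intact library (log2 fold change -0.11 ± 0.28 SE, adjusted p = 0.860). Cd68, a lysosomal membrane protein of phagocytes, was at 51.5, 42.8, 18.4, 26.7 and 17.9 CPM in intact and 18.1 to 60.7 in ORX (median 33.9). Both groups split into high and low libraries, so that the interval of the difference ran from -0.62 to 1.05. Laptm5, a lysosomal protein of leukocytes, had a narrower interval (-0.52 to 0.39), with means of 45.5 ± 12.6 (SD, n = 5) and 43.4 ± 10.8 CPM (SD, n = 6).

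Of the other core genes Ptprc, Cd53 and Itgam had lower means in ORX and did not pass the test. Ptprc, the common leukocyte antigen CD45, had means of 16.4 ± 4.81 and 12.9 ± 5.17 CPM, and ORX 6 at 3.47 CPM was the lowest library. Cd53, a leukocyte tetraspanin, had 11.5 ± 5.85 and 8.09 ± 2.47 CPM. Itgam, the integrin chain CD11b, had 12.8 ± 8.66 and 8.25 ± 4.56 CPM, with intact 1 at 27.3 CPM. The log2 fold changes were -0.34, -0.50 and -0.63, with adjusted p of 0.591, 0.401 and 0.416 in edgeR.

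Mpeg1 and Aif1 were the core genes that lay higher in ORX by more than the others. Mpeg1, the pore-forming perforin-2 of macrophages, was at 62.6, 84.2, 52.3, 38.8 and 38.0 CPM in intact 1 to 5 and at 98.7, 153, 77.7, 112, 71.8 and 49.9 CPM in ORX 1 to 6. ORX 1, 2 and 4 lay above every intact library and the other ORX libraries within the intact range, a fold of 1.70 (log2 fold change 0.77 ± 0.28 SE, edgeR adjusted p = 0.125). Limma voom with sample weights gave it an adjusted p of 0.0236 and DESeq2 0.0728. With any 1 library left out, its edgeR adjusted p was 0.0590 to 0.273. Aif1, the calcium-binding protein IBA1, was at 4.01, 2.21, 4.24, 2.59 and 0.985 CPM in intact and at 4.31, 7.85, 6.27, 4.79, 1.36 and 6.18 CPM in ORX. Of the ORX libraries, 5 of 6 lay above every intact library and ORX 5 did not (log2 fold change 0.86 ± 0.42 SE, edgeR adjusted p = 0.244).

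**Figure D2:**
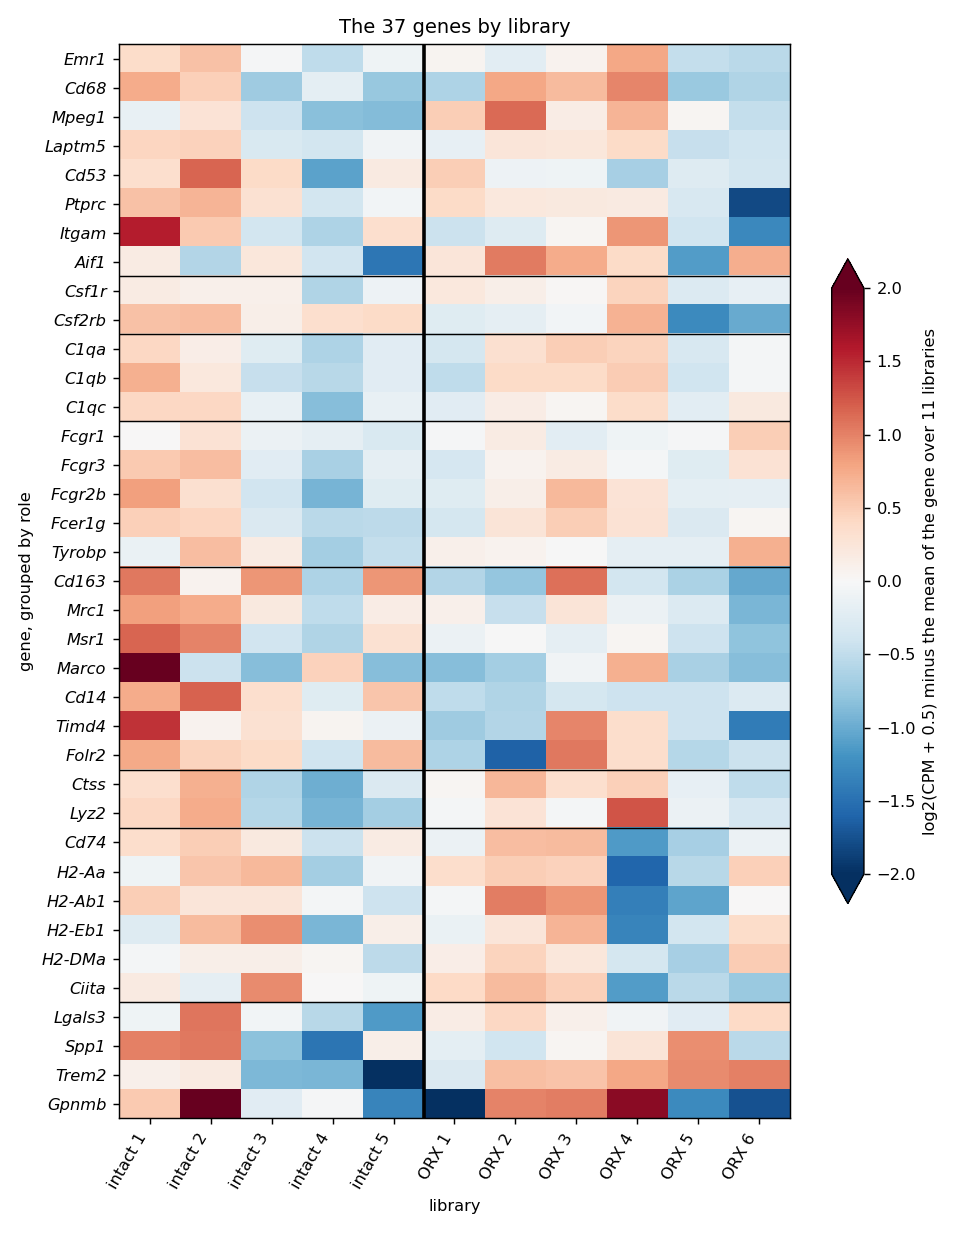
Each row is 1 member and each column 1 library; colour gives log2(CPM + 0.5) minus the member's mean over the 11 libraries. The columns of intact 1 and intact 2 are high and that of intact 4 low for most members, and ORX 4 is low in the class II rows.

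Libraries differed from each other across many members at once. Intact 4 was the lowest of its group in 24 of 36 tested members, and intact 2 was the highest in 18 and intact 1 in 13. In the ORX group ORX 4 was highest in 11 members and ORX 6 lowest in 11. The 11 members in which ORX 6 was lowest had a median principal transcript of 3238 bases, against 1494 bases for the 6 in which it was highest and 1410 bases for the 19 in which it was neither; the part of transcript length in these values was not tested.

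The receptor for the macrophage growth factors, Csf1r, had the smallest spread of all members. It was at 53.4, 51.1, 51.0, 31.1 and 44.3 CPM in intact 1 to 5 and at 54.9, 51.7, 48.2, 64.9, 39.2 and 42.2 CPM in ORX 1 to 6. Apart from intact 4 on the low side and ORX 4 on the high side, the libraries of both groups fell in 1 range, and the interval of the log2 fold change was -0.25 to 0.49 (estimate 0.12, edgeR adjusted p = 0.722). Its 2 ligands moved in opposite directions. Il34 was at 10.4, 7.65, 17.6, 7.87 and 9.62 CPM in intact and rose to 42.6, 29.1, 10.2, 34.9, 22.8 and 30.8 CPM in ORX, with ORX 3 alone inside the intact range (log2 fold change 1.41 ± 0.33 SE, edgeR adjusted p = 0.0238). Csf1 was at 80.6, 93.3, 44.2, 49.0 and 70.5 CPM in intact and fell to 31.3, 40.5, 45.4, 44.9, 33.5 and 28.5 CPM in ORX (log2 fold change -0.85 ± 0.21 SE, adjusted p = 0.0289). In both, leaving out intact 1, 2 or 5 or ORX 1 or 2 ended the call, as did leaving out ORX 4 for Il34 and ORX 5 for Csf1; the largest adjusted p was 0.0658 for Il34 and 0.0764 for Csf1. Il34 overlaps the antisense genes Gm15894 and Gm15895, and the strand setting of the counts is not given in the sources used here.

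Csf2rb, the common beta chain of the receptors for GM-CSF, IL-3 and IL-5, was at 22.2, 22.7, 16.0, 18.6 and 19.3 CPM in intact and at 12.3, 12.9, 14.1, 24.1, 5.77 and 7.01 CPM in ORX. Of the ORX libraries, 5 of 6 lay below every intact library, while ORX 4 was the highest of all 11 (log2 fold change -0.64 ± 0.30 SE, edgeR adjusted p = 0.227). Its neighbour and close copy Csf2rb2, an IL-3 receptor chain with which it could exchange reads, fell from 7.37 ± 1.99 to 2.93 ± 1.51 CPM (log2 fold change -1.32 ± 0.35 SE, adjusted p = 0.0393). The call of Csf2rb2 was lost on leaving out any 1 of intact 1, 2 and 5 and of all ORX libraries except ORX 3 (largest adjusted p 0.0924).

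The 3 chains of C1q, the recognition molecule of the classical complement pathway, are encoded side by side on the minus strand of chromosome 4 (GRCm38): C1qb at 136880129 to 136886187, C1qc at 136889804 to 136893065 and C1qa at 136895917 to 136898803. None was called. C1qa was at 140, 115, 88.0, 68.1 and 89.0 CPM in intact and 82.2, 131, 147, 142, 83.8 and 101 CPM in ORX. C1qb was at 140, 98.3, 61.8, 57.6 and 72.3 CPM in intact and 59.7, 111, 111, 122, 64.8 and 82.7 CPM in ORX. C1qc was at 91.4, 92.0, 61.8, 38.1 and 62.1 CPM in intact and 58.9, 76.2, 70.3, 88.9, 59.7 and 79.0 CPM in ORX. The same libraries were high or low in all of them: intact 4 was lowest of its group in each, and ORX 1 and 5 formed the lowest pair. The log2 fold changes were 0.20, 0.09 and 0.06 and all 3 intervals lay between -0.46 and 0.66.

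Fc receptors and their signalling adaptors held no call in 5 members, with 4 above 0 and a median log2 fold change of 0.12. Fcgr1, the high-affinity receptor for IgG, had means of 6.29 ± 1.12 and 6.85 ± 1.36 CPM and an interval of -0.30 to 0.55. The low-affinity activating receptor gene Fcgr3 had 16.9 ± 6.43 and 15.8 ± 2.70 CPM, and the inhibitory receptor gene Fcgr2b 8.74 ± 4.40 and 9.14 ± 2.53 CPM. The adaptor genes Fcer1g and Tyrobp, whose products carry the activating signal of receptors without a motif of their own, stood at 16.9 ± 6.21 and 18.5 ± 4.30 CPM and at 20.3 ± 7.65 and 22.6 ± 6.03 CPM. For Tyrobp the ORX mean held 1 library, ORX 6, at 34.4 CPM, above the other 5 at 18.2 to 22.3 CPM.

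Scavenger and pattern receptors stood below 0 in all 6 tested members, with a median log2 fold change of -0.77 against 0.01 for all tested genes, and 1 was called. Cd14 lies on chromosome 18 at 36725067 to 36726798 (GRCm38) and encodes the coreceptor that hands bacterial lipopolysaccharide to TLR4. It was at 30.4, 41.5, 22.8, 15.1 and 26.5 CPM in intact 1 to 5 and at 12.4, 11.7, 14.0, 13.3, 13.4 and 14.9 CPM in ORX 1 to 6. All 6 ORX libraries lay within a narrow band below every intact library, although ORX 6 and intact 4 nearly met. The mean fell from 27.2 ± 9.76 to 13.3 ± 1.12 CPM, 2.05-fold (log2 fold change -1.04 ± 0.21 SE, interval -1.498 to -0.58, edgeR adjusted p = 0.0132). The call held on leaving out any 1 library, with adjusted p up to 0.0392 (without intact 1). It was lost with the adjusted p limit at 0.01 and in a test against a 1.5-fold change (adjusted p = 0.242). The call was also lost with the replicate number as a block (edgeR adjusted p = 0.0729).

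**Figure D3:**
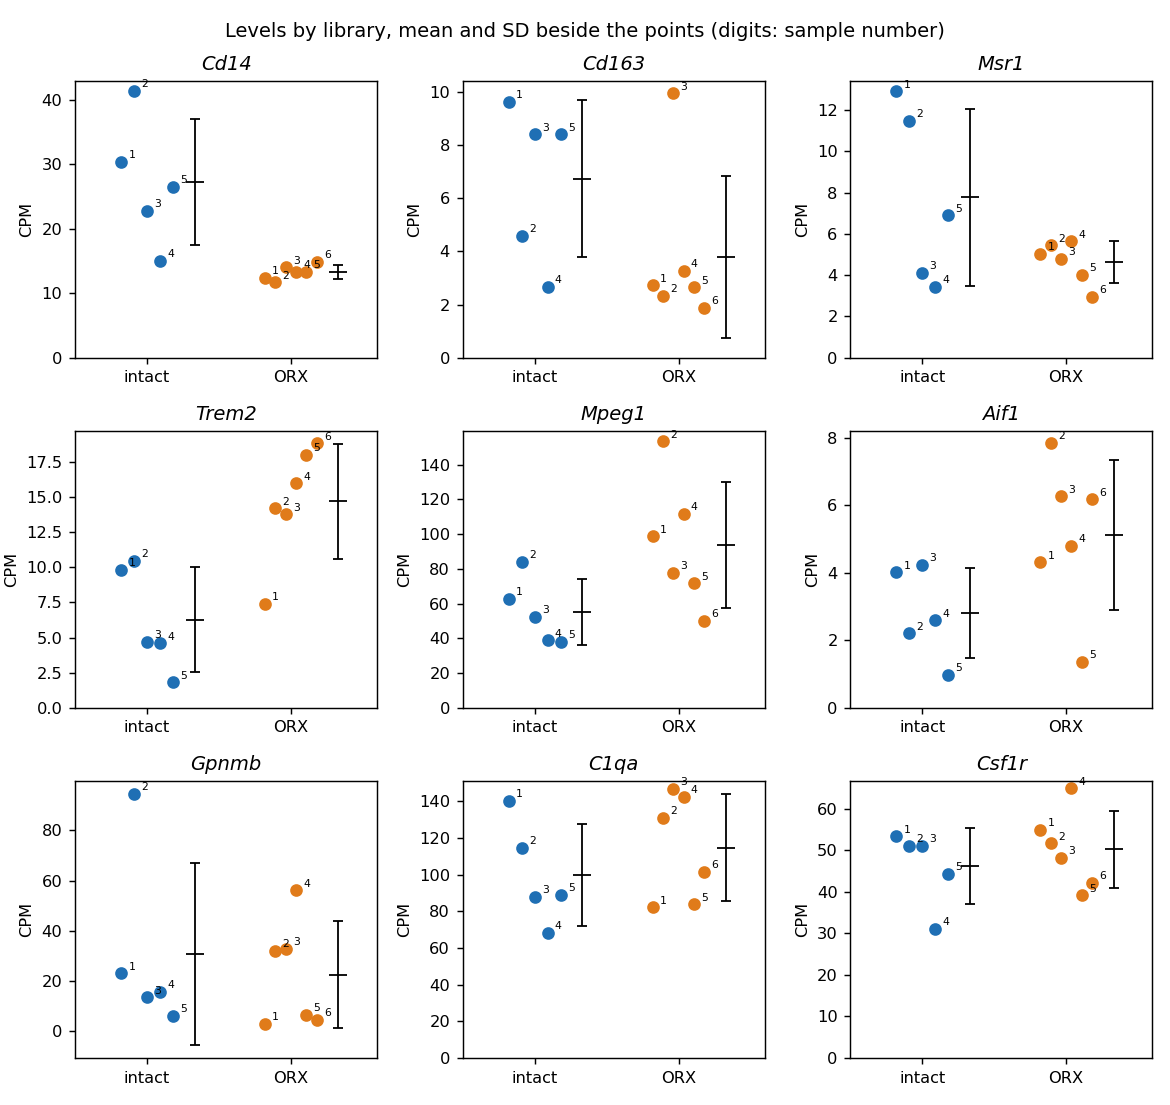
CPM of each library, intact and ORX, for 9 members, with sample numbers as digits and bars beside the points for the mean ± SD. The 6 ORX points of Cd14 lie below all intact points, and in Trem2 5 of the 6 ORX points lie above all intact points.

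The other scavenger receptors overlapped between the groups. Cd163, the receptor for haptoglobin and haemoglobin, was at 9.62, 4.59, 8.41, 2.68 and 8.41 CPM in intact and at 2.73, 2.34, 9.95, 3.27, 2.64 and 1.89 CPM in ORX. ORX 3 was above all intact libraries while the other ORX libraries lay near the lowest intact one (log2 fold change -0.83 ± 0.45 SE, edgeR adjusted p = 0.294). Without ORX 3 the log2 fold change was -1.39 with an edgeR adjusted p of 0.0254, which passed the threshold. That fit called 1280 genes, against 878 with all libraries. ORX 3 also held the highest summed level of 12 fat markers in its group, 15043 CPM against 3306 to 6952 CPM in the other ORX libraries, and of 12 capsule and stroma markers, 1765 CPM against 601 to 998.9 CPM; their part in the Cd163 values was not tested. Folr2, a folate receptor of resident macrophages, repeated the pattern, at 7.30 CPM in ORX 3 and 0.714 to 4.26 CPM in the other ORX libraries, and its log2 fold change was -0.55 ± 0.46 SE. Timd4, which binds phosphatidylserine on dying cells, was low in all libraries. It was at 3.65 CPM in intact 1, at 0.909 to 1.39 CPM in the other intact libraries and at 0.0754 to 2.51 CPM in ORX.

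Mrc1, the mannose receptor, was at 42.4, 40.2, 27.2, 16.7 and 26.3 CPM in intact and at 25.5, 17.2, 28.5, 21.9, 19.6 and 12.4 CPM in ORX. Intact 1 and 2 lay above every ORX library and the other intact libraries among them (log2 fold change -0.55 ± 0.26 SE, edgeR adjusted p = 0.218). Msr1, scavenger receptor A, had the same high pair, 12.9 and 11.5 CPM in intact 1 and 2 against 3.43 to 6.90 CPM in intact 3 to 5, and ORX was at 2.94 to 5.63 CPM (log2 fold change -0.74 ± 0.34 SE, adjusted p = 0.212). Marco, a scavenger receptor of marginal zone and alveolar macrophages, was too low to test. Intact 1 gave 204 of the 215 Marco counts in the intact group, and the 6 ORX libraries held 20 counts in all.

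Lyz2 and Ctss, a secreted lysozyme and a lysosomal protease that trims the invariant chain, were among the most abundant members and were not called. Lyz2 was at 185, 234, 93.6, 72.7 and 86.2 CPM in intact and at 136, 168, 136, 333, 128 and 110 CPM in ORX. ORX 4 was highest by far and the remaining ORX libraries lay between the intact high pair and the intact low libraries (log2 fold change 0.33 ± 0.35 SE, adjusted p = 0.626). Without ORX 4 the log2 fold change of Lyz2 was -0.00. Ctss had means of 80.2 ± 38.5 and 93.9 ± 27.0 CPM and an interval of -0.41 to 0.86.

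Class II presentation was carried by 6 members, of which none was called, with 2 above 0, 4 below and a median log2 fold change of -0.12. The class II chains H2-Aa, H2-Ab1 and H2-Eb1 and the peptide loading chain H2-DMa lie on chromosome 17, in the mouse major histocompatibility complex. Their promoters are known to hold an X box, bound by the RFX complex, and a Y box, bound by NF-Y, to which the coactivator CIITA is recruited. The stretches of 120 bases before the start sites of H2-Aa and H2-Eb1 are shown because both held CTNGCAAC and CTGATTGG, letters described below. They come from RefSeq promoters on GRCm38.p6, chr17:34287824-34287943 on the minus strand for H2-Aa and chr17:34305747-34305866 on the plus strand for H2-Eb1, read 5′ to 3′ on the gene's strand, with X-type letters first and Y box letters second in capitals.
H2-Aa: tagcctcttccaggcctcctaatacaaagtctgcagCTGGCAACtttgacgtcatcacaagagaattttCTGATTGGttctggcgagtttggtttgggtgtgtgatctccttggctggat
H2-Eb1: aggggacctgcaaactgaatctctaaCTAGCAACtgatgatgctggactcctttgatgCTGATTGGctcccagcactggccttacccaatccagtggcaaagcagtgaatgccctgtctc

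The X-type letters begin 84 bases before the start site in H2-Aa and 94 bases before it in H2-Eb1, and the Y box letters 51 and 62 bases before it. The space between the boxes was 25 and 24 bases. The letters searched, on both strands of the 250 bases before each start site, were CCNNGNAAC and CTNGCAAC for the X box, ATTGG and CTGATTGG (which contains ATTGG) for the Y box, and GAGGAAGT for PU.1-type sites. CTNGCAAC was chosen after the sequences were read, and CTGATTGG was added to the letters first planned. Windows were at hand for 27 members outside chromosome 18, and not for H2-Ab1 or Ciita. CTNGCAAC occurred in 2.84% of 32851 promoter windows and, among members, in Cd163, H2-Aa and H2-Eb1. CTGATTGG occurred in 3.83% of windows and in H2-Aa, H2-Eb1 and Spp1, ATTGG in 33.8% and in 13 members. Both CTNGCAAC and CTGATTGG on the gene's strand were found in 14 windows, 0.0426% of all, of which 2 were those of H2-Aa and H2-Eb1. Because of how the letters were chosen, the place of these genes among the 14 lends no support to the boxes. CCNNGNAAC occurred in 12.6% of windows and in Itgam and H2-DMa, and GAGGAAGT in 2.44% and in C1qc and Spp1.

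Cd74 was at 484, 534, 431, 282 and 423 CPM in intact 1 to 5 and at 350, 580, 585, 173, 238 and 349 CPM in ORX 1 to 6. The intact libraries lay inside the range of the ORX libraries, which split into a high pair, ORX 2 and 3, a low pair, ORX 4 and 5, and ORX 1 and 6 between them (log2 fold change -0.18 ± 0.29 SE, adjusted p = 0.754). H2-Aa, the alpha chain of I-A, was at 101, 159, 169, 67.1 and 102 CPM in intact and 137, 152, 149, 35.5, 73.0 and 150 CPM in ORX. H2-Ab1, its beta chain, was at 147, 124, 124, 101 and 78.4 CPM in intact and 101, 212, 193, 40.3, 49.7 and 104 CPM in ORX. ORX 4 and 5 were the lowest of their group in both. The means of H2-Aa were 120 ± 43.0 and 116 ± 49.5 CPM and those of H2-Ab1 115 ± 26.0 and 117 ± 71.7 CPM. H2-Eb1, the beta chain of I-E, was at 88.4, 165, 202, 56.0 and 115 CPM in intact and 96.9, 126, 171, 42.0, 82.1 and 137 CPM in ORX. The log2 fold changes of the chains were -0.05 ± 0.35, 0.03 ± 0.38 and -0.20 ± 0.35 SE.

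H2-DMa, part of the molecule that exchanges peptides on class II, was at 8.46, 9.43, 9.47, 8.95 and 5.91 CPM in intact and 9.62, 12.01, 10.3, 6.70, 5.29 and 12.6 CPM in ORX. Ciita was at 3.72, 2.80, 6.69, 3.26 and 3.03 CPM in intact and 4.45, 5.32, 4.72, 1.22, 2.08 and 1.73 CPM in ORX. ORX 4 and 5 were low in both of these too, and for Ciita ORX 6 joined them. Across the 6 class II members ORX 4 was the lowest of its group in 5 and in the lowest pair in all 6, ORX 5 was in the lowest pair in 5, and ORX 2 in the highest pair in 5. Outside class II the same ORX 4 was highest of its group in 11 of 30 tested members and lowest in 1. The summed level of the class II members ran from 518 to 994 CPM in intact and from 299 to 1112 CPM in ORX. Class II genes differ in sequence between mouse haplotypes, and how reads of this stock matched the mm10 reference was not tested.

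**Figure D4:**
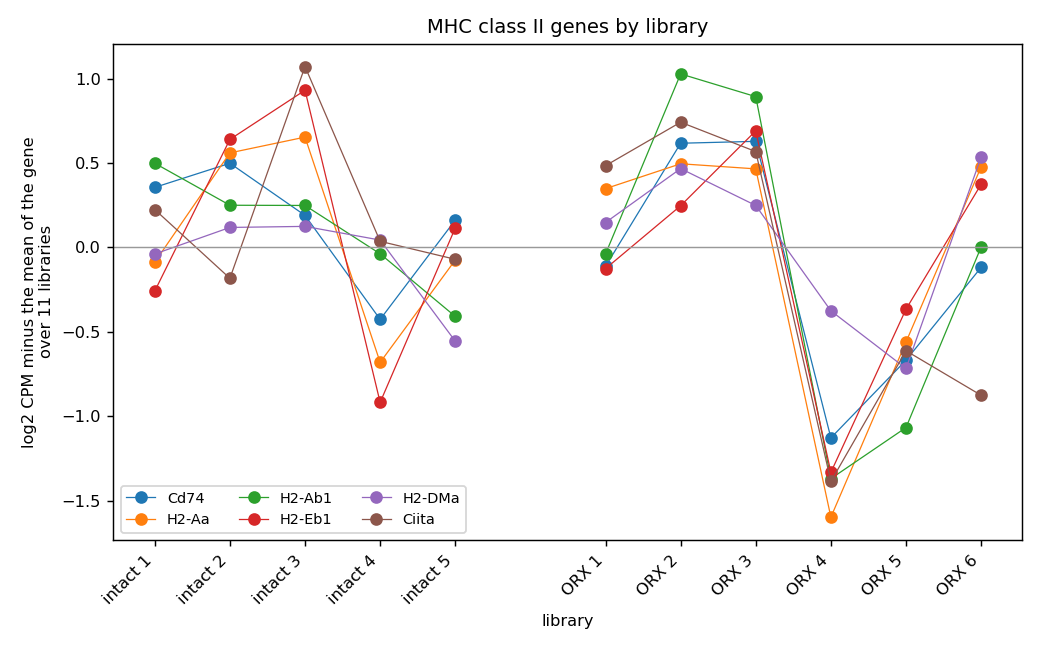
Log2 CPM minus the gene's mean over the 11 libraries (vertical axis) for the 6 class II members in each library, intact 1 to 5 and ORX 1 to 6; lines only join the points of a gene, and libraries have no order. In all 6 genes ORX 4 is the lowest or next to the lowest ORX library.

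Other class II genes and their regulators, 15 in the list of which 13 were tested, held 1 call. Of all tested genes 6.21% were called in either direction, so this count is near the background. Ifi30, a lysosomal reductase that opens disulphide bonds of antigens, was at 34.3 to 40.6 CPM in the 5 intact libraries and at 44.1, 62.0, 49.8, 49.5, 47.9 and 60.7 CPM in ORX. It rose by 0.46 ± 0.13 SE on the log2 scale with no overlap (edgeR adjusted p = 0.0489). That call was lost on leaving out any 1 library except ORX 3 (adjusted p up to 0.129). It was also lost with RLE in place of TMM scaling (edgeR adjusted p = 0.0529) and without the filter on low counts (0.0758). Of 17 MHC class I genes 16 were tested, and all 16 stood above 0 with a median log2 fold change of 0.52, against 0.01 for all tested genes. The 1 call among them is again near the background. Psme1, a subunit of the proteasome activator PA28, was at 153, 159, 167, 161 and 154 CPM in intact and rose to 250, 328, 294, 254, 275 and 343 CPM in ORX (log2 fold change 0.87 ± 0.13 SE, adjusted p = 0.00168). The summed class I level was 2323 to 3092 CPM in intact and 2067 to 3036 CPM in 4 ORX libraries, with ORX 2 at 6200 CPM and ORX 3 at 5097 CPM, the pair that was also high in class II. Psme1 overlaps the antisense gene Emc9, and Ifi30 the antisense gene 6330537M06Rik.

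The last group of members, 4 genes raised in lipid-laden and remodelling macrophages, held no call. Trem2, a lipid-sensing receptor that signals through the Tyrobp adaptor, was at 9.84, 10.4, 4.703, 4.60 and 1.82 CPM in intact 1 to 5 and at 7.40, 14.2, 13.8, 16.0, 18.02 and 18.9 CPM in ORX 1 to 6. All ORX libraries but ORX 1 lay above every intact library, and the means were 6.28 ± 3.72 and 14.7 ± 4.11 CPM, a fold of 2.34. The log2 fold change was 1.23 ± 0.38 SE (interval 0.40 to 2.05), and the edgeR adjusted p of 0.0752 did not pass the threshold. DESeq2 gave an adjusted p of 0.0175 and limma voom 0.0321, both past it, but these methods called 1630 and 2056 genes against 878 in edgeR. With any 1 library left out, the edgeR adjusted p of Trem2 was 0.0603 to 0.144, never past the threshold. Its adaptor Tyrobp differed by 0.15 on the log2 scale, with an interval of -0.38 to 0.68.

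Gpnmb, a glycoprotein of lipid-loaded macrophages, was at 22.9, 94.6, 13.4, 15.5 and 5.99 CPM in intact and 2.80, 31.8, 32.7, 56.1, 6.25 and 4.37 CPM in ORX. The highest library of each group exceeded its lowest by over an order of magnitude, and the interval of the log2 fold change ran from -2.15 to 1.26. Lgals3, the galectin-3 gene, had means of 22.2 ± 14.0 and 23.9 ± 4.22 CPM, and Spp1, the osteopontin gene, 16.6 ± 11.2 and 14.6 ± 6.30 CPM. Of 24 further genes of lipid-laden macrophages and lysosomes 23 were tested, with a median log2 fold change of -0.12 and 1 call. Over all tested genes 6.21% were called in either direction. Lipa, the lysosomal acid lipase that releases cholesterol from its esters and is also expressed by cells other than macrophages, rose by 1.20 ± 0.21 SE on the log2 scale (edgeR adjusted p = 0.00453).

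Among 54 tested of 56 other macrophage genes 4 rose and 2 fell, against 3.03% and 3.18% of all tested genes, which puts the falls near the background. Of the 54, 33 stood above 0 and the median log2 fold change was 0.08. Irf8, a transcription factor of monocytes, macrophages and dendritic cells, was at 16.2, 27.4, 20.2, 16.0 and 11.1 CPM in intact and rose to 63.9, 86.6, 27.6, 64.9, 32.1 and 30.5 CPM in ORX, with ORX 3 barely above the highest intact library (log2 fold change 1.49 ± 0.33 SE, edgeR adjusted p = 0.0190). The call was lost without intact 1 or without intact 5 (adjusted p up to 0.0581). Unc93b1, which brings nucleic acid-sensing Toll-like receptors to the endosome, rose from 57.4 to 80.01 CPM in intact to 97.6 to 143 CPM in ORX (log2 fold change 0.74 ± 0.14 SE, adjusted p = 0.00689). Sirpa, the receptor of the CD47 signal, and Clec12a, an inhibitory lectin of myeloid cells, rose by 0.83 ± 0.21 and 1.59 ± 0.43 SE on the log2 scale (adjusted p = 0.0369 and 0.0432).

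Hmox1, the haem oxygenase of macrophages and other cells, was at 194, 237, 133, 178 and 162 CPM in intact and fell to 41.1, 50.6, 64.9, 70.2, 66.4 and 128 CPM in ORX, with ORX 6 closest to the intact libraries (log2 fold change -1.36 ± 0.26 SE, edgeR adjusted p = 0.00761). Lyve1, a hyaluronan receptor of some resident macrophages and of lymphatic endothelium, fell from 6.56 to 29.4 CPM in intact to 2.08 to 11.4 CPM in ORX, where ORX 3 was highest as it was for Cd163 (log2 fold change -1.80 ± 0.49 SE, adjusted p = 0.0474). The calls of Sirpa, Clec12a and Lyve1 were each lost on leaving out any 1 of intact 1, 2 and 5 and of ORX 1, 2, 4 and 5, those of Clec12a and Lyve1 also without intact 4 and without ORX 6 respectively, with adjusted p up to 0.104, 0.102 and 0.116.

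Ligands, receptor partners and downstream complement, 28 tested of 32, held 1 rise and 4 falls with a median log2 fold change of -0.00. All tested genes gave 3.03% higher and 3.18% lower, so the single rise is near the background. Besides Il34, Csf1 and Csf2rb2, the chemokine genes Cx3cl1 and Ccl2 fell. Cx3cl1, which holds monocytes and macrophages that bear its receptor, was at 76.8, 75.5, 52.9, 61.3 and 83.9 CPM in intact and 39.5 to 50.2 CPM in ORX (log2 fold change -0.66 ± 0.14 SE, edgeR adjusted p = 0.0130). Ccl2, which attracts monocytes, was at 3.65, 19.7, 1.32, 1.59 and 3.11 CPM in intact and 0.320 to 1.25 CPM in ORX, so that intact 2 held most of its signal (log2 fold change -2.68 ± 0.68 SE, adjusted p = 0.0343). Without intact 2 the log2 fold change of Ccl2 was -1.41 and the call was lost (adjusted p = 0.0901), as it was without intact 1 or 5 or any ORX library except ORX 3.

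**Figure D5:**
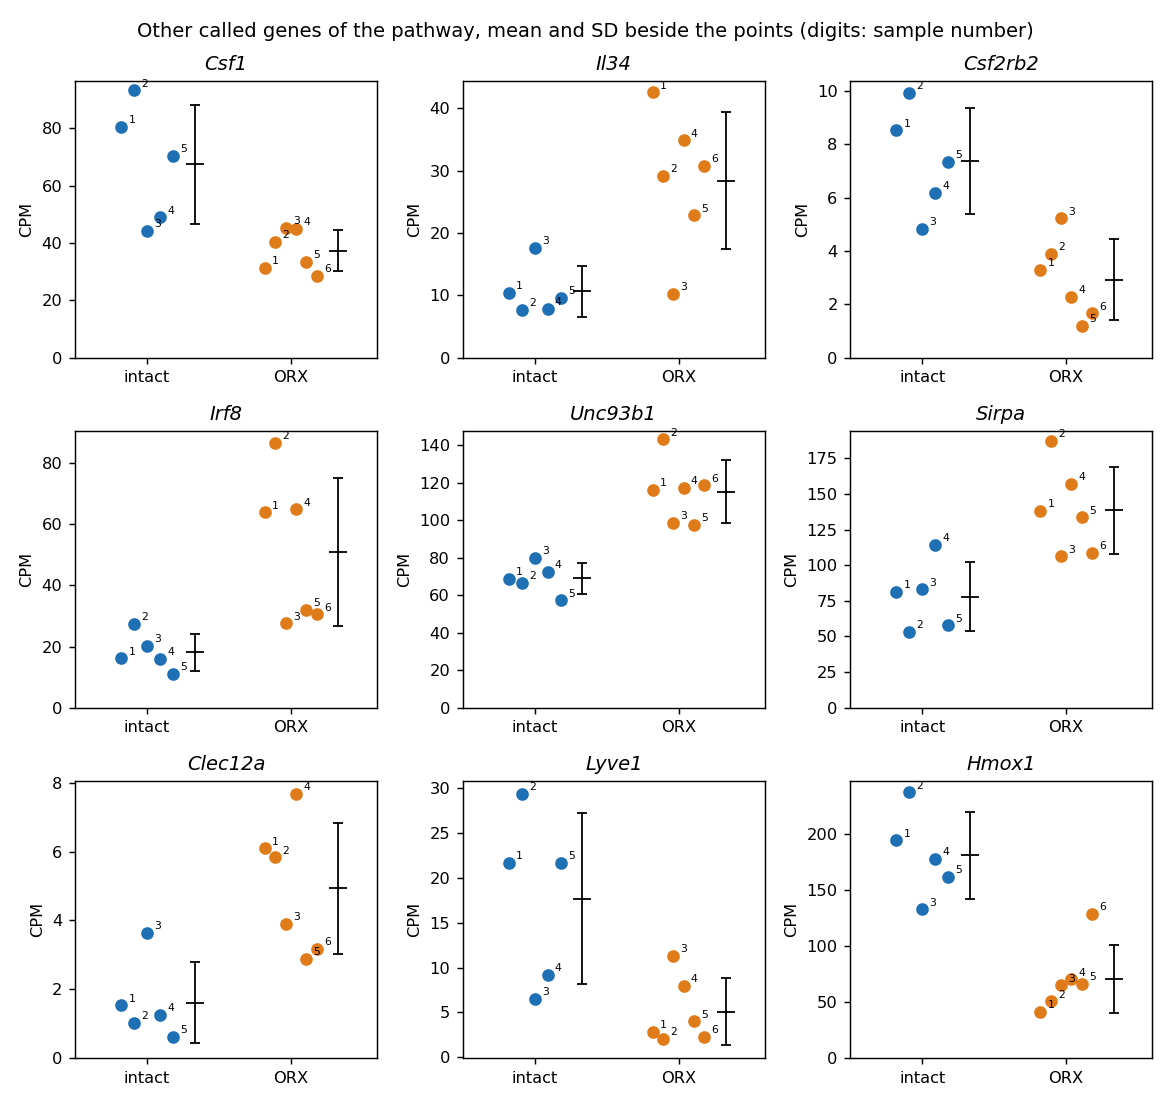
CPM of each library for 9 of the pathway-list genes that passed the threshold, with bars for the mean ± SD. Unc93b1, Irf8 and Hmox1 separate the groups completely, and ORX 3 lies among the intact libraries in Il34.

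Markers of other immune cells held 1 call among 6 lists, against 6.21% of all tested genes called in either direction. Monocyte markers (5 tested of 8), neutrophil markers (4 of 12 in the table), mast cell markers (6 of 9), B and plasma cell markers (4 of 12) and T and NK cell markers (7 of 20) held no call. Summed monocyte markers ran from 63.0 to 83.5 CPM in intact and 40.0 to 81.2 CPM in ORX, and mast cell markers from 29.7 to 62.9 and 21.5 to 64.1 CPM. Most of the monocyte sum was Ly6c1, with a mean of 50.8 CPM over all libraries, and Plac8 came next at 5.61 CPM. Most of the mast cell sum was Hdc (20.9 CPM) and Kit (9.53 CPM), and Tpsb2 came next at 2.50 CPM. Neutrophil markers were below 0 in all 4 tested genes, with a median log2 fold change of -1.24. Their sums were 30.6 CPM in intact 1, 6.56 to 14.6 CPM in the other intact libraries and 4.81 to 9.88 CPM in ORX. Mpo, which neutrophil precursors express, had at most 6 counts in any library. Dendritic cell markers (6 tested of 13) held 1 call, Fscn1, an actin-bundling protein also made by other cells, which rose by 1.12 ± 0.21 SE on the log2 scale (edgeR adjusted p = 0.00668). Their sums, 54.3 to 78.3 CPM in intact and 79.9 to 143 CPM in ORX, did not overlap, while the median of the tested genes was -0.36. Without Fscn1 the sums of the other 12 genes, 19.2 to 32.9 CPM in intact and 15.2 to 22.4 CPM in ORX, did overlap. Of the 6 lymph node and spleen stroma markers, Ccl21a and Ccl21b were at 0 in every library and 1 gene was tested and not called. Of the red blood cell markers 3 of 8 in the table were tested and none was called, and Hba-a1, Hba-a2, Hbb-b1 and Hbb-b2 were listed at 0. Globin RNA was present all the same: Beta-s (Hbb-bs) had 1186 to 4847 counts in the intact libraries and 1090 to 4862 in ORX. The summed red blood cell markers ran from 97.2 to 392 CPM in intact and from 86.7 to 421 CPM in ORX.

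Calls among markers of the surrounding tissue stand here beside the 3.03% of all tested genes called higher and 3.18% called lower. X-zone markers rose in 3 of 3, from a sum of 28.7 to 40.2 CPM in intact to 831 to 2911 CPM in ORX, and adrenal cortex markers in 3 of 10. Zona glomerulosa markers fell in 4 of 8, medulla markers in 3 of 13, endothelial markers in 2 of 12 and capsule and stroma markers in 1 of 12, the share closest to that background. Fat markers held no call, with all 12 below 0, a median log2 fold change of -0.62 and sums of 5461 to 13449 CPM in intact and 3306 to 15043 CPM in ORX. The part of these markers in Cd14 and in the other values given here was not tested.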

How the data were processed

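Total RNA (300 ng per sample) from adrenal glands was made into Illumina TruSeq libraries, per the labels' protocols, which name both a stranded and an unstranded guide. The deposited values are the authors' raw read counts per gene symbol. The submitters' processing notes list Subread 1.5.1, bcl2fastq 1.8.4 and mm10 as the build, with no role; for the annotation, the strand setting and reads that match several genes, nothing is given in the sources used here. The table holds 2 identical copies of itself, and the first was used.

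Genes were kept by edgeR's filterByExpr (minimum count of 10 and minimum total of 15); 14139 genes passed, holding 99.9% of all counts. ORX was tested against intact with edgeR 4.0.16 (TMM, glmQLFit and glmQLFTest, R 4.3.3), two-sided, with no covariate, on 5 and 6 samples, with p-values adjusted by Benjamini-Hochberg over all tested genes and a threshold of 0.05. SE is the log2 fold change over the square root of its F statistic, and intervals are 95%. CPM use the TMM-scaled library size and are given as mean ± SD (n = 5 intact, n = 6 ORX). Totals of 11368447 to 15029582 counts set the counting error, which is smallest for abundant genes. All pairs of libraries in a group differed beyond sampling noise, with a chi-square of at least 25.5 per degree of freedom.

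The members and the other lists (5 of pathway genes, 15 of markers) were chosen with earlier results of these data known. Of 302 further list symbols 300 were found, 4 under older names (Spi1 as Sfpi1, Pirb as Lilrb3, Mzb1 as 2010001M09Rik and Hbb-bs as Beta-s). All members are reported; from each other list the rule named up to 3 genes with the smallest p among called genes whose mean was at least 1 CPM, of which those of the tissue lists (cortex, glomerulosa, X-zone, medulla, fat, endothelium, capsule and stroma) are given as counts. Sirpa, Clec12a, Lyve1, Ccl2 and Csf2rb2 were added after their values were seen, to complete a count. Positions and lengths (longest principal transcript) are from GENCODE M21 (GRCm38, which is mm10), joined on the symbol, with Emr1 as Adgre1. Exons of Csf1r, Fcgr2b, Folr2, H2-DMa and Ciita overlap another gene in antisense and may hold its reads. On the same strand, exons of Itgam overlap Gm49368, those of Csf2rb Mir7676-2, those of Cd74 Mir5107 and those of Spp1 Gm42793. Csf2rb2 overlaps Mir7676-1 in the same way. Alternatives used limma 3.58.1 (voom) and DESeq2 1.42.0. The fit was tested on simulated counts with known changes.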

Additional observations from a re-analysis of the deposited data

Results flagged for a closer look

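Single libraries far from the rest of their group, by Dixon's test at its 95% critical value, were found in 13 of 104 groups checked, 10 of them in the 74 groups of members. Chance flags about 1 in 20 if the values are normally distributed. That was not tested for these CPM, so the counts do not show an excess over chance. ORX 4 was high in Emr1, at 13.4 CPM against at most 7.96 CPM in the other ORX libraries, in Lyz2, at 333 CPM against at most 168 CPM, and in Marco, at 0.989 CPM against at most 0.369 CPM. ORX 3 was high in Cd163, at 9.95 CPM against at most 3.27 CPM. ORX 6 was high in Tyrobp, at 34.4 CPM against at most 22.3 CPM, and in Hmox1, at 128 CPM against at most 70.2 CPM. Intact 1 was high in Marco, at 14.9 CPM against at most 0.753 CPM, and in Timd4, at 3.65 CPM against at most 1.39 CPM. Intact 2 was high in Gpnmb, at 94.6 CPM against at most 22.9 CPM, and in Ccl2, at 19.7 CPM against at most 3.65 CPM. Intact 3 was high in the class II regulator Ciita, at 6.69 CPM against at most 3.72 CPM, and in Il34, at 17.6 CPM against at most 10.4 CPM. Intact 5 was low in H2-DMa, at 5.91 CPM against at least 8.46 CPM in the other intact libraries.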

How the results depend on the processing

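Over 21 alternatives the 878 calls became 1630 with DESeq2, 2056 with limma voom, 260 at an adjusted p under 0.01, 174 against a 1.5-fold change and 408 to 1280 with 1 library left out. Members called higher, 0 in the report, were 1 with DESeq2 (Trem2) and 2 with limma voom (Trem2 and Mpeg1). Members called lower, 1 in the report, were 0 at an adjusted p under 0.01 and against a 1.5-fold change, and 1 to 2 with 1 library left out. Whether equal replicate numbers mark paired samples is not stated. The correlations of same-numbered libraries' deviations were -0.31, -0.12, -0.21, 0.22 and 0.19, and number 5 alone matched its own best. With no reference value for unpaired samples, these correlations cannot decide it. With the replicate number as a block 416 genes were called, 351 of them shared, with 1 member higher (Mpeg1, adjusted p = 0.0272) and 0 lower (Cd14, adjusted p = 0.0729). The median log2 fold change of the members stayed between -0.19 and 0.09. Direction changed in 17 members, none of them called, and the cause was not tested. With 1 library left out, log2 fold changes ran from -0.35 to 0.045 for Emr1, -0.17 to 0.049 for Laptm5, -0.0083 to 0.18 for Csf1r, -0.036 to 0.34 for C1qb, -0.11 to 0.19 for C1qc, -0.25 to 0.074 for Fcgr3, -0.12 to 0.37 for Fcgr2b, -0.0047 to 0.37 for Tyrobp, -0.00022 to 0.62 for Lyz2, -0.21 to 0.13 for H2-Aa, -0.25 to 0.19 for H2-Ab1, -0.40 to 0.026 for H2-Eb1, -0.47 to 0.015 for Ciita, -0.086 to 0.55 for Lgals3, -0.44 to 0.096 for Spp1 and -0.98 to 0.63 for Gpnmb. Without intact 3 and ORX 6 they were -0.014 for C1qc, 0.15 for Ciita, -0.014 for Fcgr1 and 0.012 for H2-Aa. With limma voom they were 0.081 for Gpnmb and -0.25 for H2-Ab1, and with the replicate block -0.22 for H2-Ab1, 0.012 for Laptm5 and 0.16 for Spp1. Counting error limits Timd4, Marco, Ciita and Folr2 most, since they had the fewest counts.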
